A study of Mus musculus with 18 samples.

Results

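Ribosome biogenesis and RNA polymerase I (Pol I) genes were followed as a list of 48 genes given by name, which was drawn up with earlier results of these data known. All 48 were found among the 55401 genes of the count table, and all 48 passed the filter on low counts in both genetic series, where 14036 and 13881 genes were tested. The list holds 6 genes of the Pol I machinery, Myc, 5 abundant nucleolar proteins, 4 proteins of the C/D and 4 of the H/ACA small nucleolar ribonucleoproteins (snoRNPs), 12 assembly factors of the 40S subunit and 16 of the 60S subunit.

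RNA-seq was performed on poly(A) RNA of mouse embryonic fibroblasts (MEFs), primary cells grown from minced embryos after removal of head and viscera, in 6 groups of 3 libraries. In the S6K1 series, wild-type (WT) MEFs carried an empty retroviral vector (EV) or a vector for constitutive RAS expression, and S6K1 knockout (KO) MEFs carried RAS. In the S6K1/S6K2 series, MEFs with both kinases deleted (double knockout, DKO) carried RAS and stood beside their own WT EV and WT RAS groups. S6K1 and S6K2, encoded by Rps6kb1 and Rps6kb2, are kinases that phosphorylate ribosomal protein S6 downstream of mTORC1. KO and WT MEFs of the S6K1 series came from littermate embryos, whereas DKO MEFs and the WT MEFs beside them came from different mothers, so that genotype and mother cannot be told apart there. MEFs are a mixed culture of several cell types, and knockout cells with EV were not analysed here, so the effect of kinase loss was read in RAS cells alone. The labels number the libraries of a group without naming an embryo for each, so the p-values measure the spread between these libraries.

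Ribosomes are made in the nucleolus, where Pol I, recruited to ribosomal DNA by UBTF and RRN3, transcribes the precursor of the large ribosomal RNAs. C/D and H/ACA snoRNPs modify that precursor, and assembly factors fold and cut it into the small (40S) and the large (60S) subunit. MYC activates many of these genes, and in fibroblasts their output is tied to growth and proliferation, which oncogenic RAS first drives and then arrests as the cells become senescent. The libraries measure mRNA levels of the machinery, not ribosomal RNA synthesis or ribosome number.

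Total counts were 8319445 to 14402442 per library, and members had between 32 counts (Fbl) and 9668 counts (Ncl) in a library. Rps6kb1, as a check of the labels, was at 23.6 to 37.0 counts-per-million (CPM, with TMM scaling within each series) in the KO and 34.5 to 39.7 CPM in the DKO libraries, against 61.6 CPM or more in every WT library, and Rps6kb2 was at 2.68 to 3.04 CPM in the DKO libraries. Hras was at 50.8 to 72.7 CPM with EV and at 90.3 to 141 CPM with RAS. All 10 fibroblast markers were above 1 CPM on average in every group. Macrophage markers (17 genes found, 15 to 17 of them above 1 CPM on average in each group) were also detected, and their summed level in the S6K1 series ranged from 700.5 to 3464 CPM over the WT EV libraries, 773 to 3963 CPM over those with RAS and 259 to 914 CPM over the KO libraries. The corresponding ranges of the S6K1/S6K2 series were 167 to 1527, 183 to 1081 and 75.8 to 252 CPM. The part of these cells in the results below was not tested.

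To ask what RAS did to the ribosome biogenesis machinery, WT RAS was compared with WT EV. In the S6K1 series 2 of 48 members passed the test (adjusted p under 0.05 over all tested genes in edgeR), Polr1e higher and Ubtf lower, where 13.2% of all tested genes passed (7.15% higher, 6.09% lower). For the S6K1/S6K2 series 4 of 48 passed, Myc and Polr1e higher and Ubtf and Tcof1 lower, where 26.3% of all tested genes passed (13.5% higher, 12.7% lower). Most members moved little. Log2 fold changes lay between -0.43 and 0.83 in the S6K1 series, with a median of 0.16 (all tested genes 0.0018), and between -0.90 and 1.23 in the S6K1/S6K2 series, with a median of 0.02 (all tested genes -0.02). Of the 48 members, 42 had a value above 0 in the S6K1 series (50.2% of all tested genes did) and 26 in the S6K1/S6K2 series (48.2%). Leaving out 1 library moved these medians to between 0.11 (without WT RAS 1) and 0.25 (without WT EV 1 or WT RAS 3) in the S6K1 series, and to between -0.06 (without WT RAS 1) and 0.08 (without WT EV 1) in the S6K1/S6K2 series, where the sign also turned without WT EV 2 (-0.02). These are bulk libraries, in which fewer cells with a transcript and less of that transcript per cell cannot be told apart.

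Over all tested genes, the replicate numbers tied the WT EV and WT RAS libraries of a series together. The tie was less clear over the members alone, by the correlation r of deviations from group means. Same-numbered libraries had r of 0.740, 0.478 and 0.353 in the S6K1 series and 0.511, 0.099 and 0.165 in the S6K1/S6K2 series. WT RAS 3 of the former had 0.440 with WT EV 2, and WT RAS 2 of the latter 0.418 with WT EV 3. The fit with the number as a block passed more members. In the S6K1 series 16 passed with the block, of which 13 were higher (Polr1e, Myc, Lyar, Rrp9, Dkc1, Nhp2, Nop2, Nop16, Rrp1b, Bop1, Ddx56, Ebna1bp2 and Nip7) and 3 lower (Ubtf, Tcof1 and Utp20). With the block 36.2% of all tested genes passed, 18.1% higher and 18.1% lower, beside 27.1% of members higher and 6.25% lower. For the S6K1/S6K2 series 7 passed with the block, Polr1e and Myc higher and Ubtf, Tcof1, Nop58, Ltv1 and Nip7 lower, where 28.7% of all tested genes passed (15% higher, 13.7% lower). That block also tied the DKO libraries to WT by number, although DKO and WT MEFs came from different mothers. With the block over the 6 WT libraries alone, Polr1e, Myc, Ubtf and Tcof1 passed and Nop58 did not. Ltv1 and Nip7 were not followed singly in that fit.

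The members that passed as lower without the block, Ubtf and Tcof1, both belong to the Pol I machinery. Ubtf, the factor that binds and opens ribosomal DNA for Pol I (GRCm38.p6 chromosome 11, 102304560 to 102323649), had 99.9, 95.6 and 96.2 CPM in WT EV libraries 1, 2 and 3 of the S6K1 series and 75.7, 72.5 and 68.4 CPM with RAS. The groups did not overlap, and Ubtf fell to 0.742 times its EV level (log2 fold change -0.43 with an SE of 0.10, adjusted p 0.0236). Its levels in the S6K1/S6K2 series were 163, 140 and 112 CPM with EV and 79.5, 73.2 and 68.9 CPM with RAS. All RAS libraries again lay below all EV libraries, with a fall to 0.534 times the EV level (log2 fold change -0.90, SE 0.14, adjusted p 0.00205). The call in the S6K1 series depended on the libraries compared. Without any 1 of the 6 WT libraries the adjusted p was between 0.0541 (without WT RAS 1) and 0.0998 (without WT RAS 2), at log2 fold changes of -0.46 to -0.39, whereas in the S6K1/S6K2 series Ubtf passed in all 19 alternatives.

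Tcof1 encodes treacle, a nucleolar partner of UBTF and Pol I. The S6K1 series gave 35.1, 43.1 and 44.7 CPM with EV and 31.6, 34.0 and 33.5 CPM with RAS, with all RAS libraries below all EV libraries, but Tcof1 did not pass (log2 fold change -0.31, SE 0.12, adjusted p 0.142). With the replicate block its adjusted p was 0.0233. Tcof1 levels in the S6K1/S6K2 series were 51.4, 47.9 and 47.6 CPM with EV and 28.7, 29.7 and 26.5 CPM with RAS. It fell there to 0.578 times the EV level (log2 fold change -0.79, SE 0.11, adjusted p 0.00105), and passed in all 19 alternatives.

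Polr1e moved the other way. It encodes a Pol I subunit of the PAF53/PAF49 pair (chromosome 4, 45018609 to 45034279). Its level was 15.2, 15.6 and 18.1 CPM with EV and 20.3, 23.1 and 24.8 CPM with RAS for the S6K1 series, and 14.2, 11.4 and 16.3 CPM against 21.7, 18.2 and 25.3 CPM in the S6K1/S6K2 series. Every RAS library was above every EV library of its series. Polr1e rose 1.40-fold (log2 fold change 0.48, SE 0.13, adjusted p 0.0456) and 1.55-fold (log2 fold change 0.64, SE 0.18, adjusted p 0.0297), respectively. These calls sit close to the threshold. In the S6K1 series the call was lost whichever of the 9 libraries was left out, with adjusted p values from 0.0548 (without WT EV 3) to 0.129 (without WT EV 2). The S6K1/S6K2 call was lost without WT EV 1 (0.0513), WT EV 2 (0.0938), WT RAS 1 (0.0586) or WT RAS 3 (0.118).

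The remaining members of the Pol I machinery did not pass. Polr1b, the second largest subunit, was at 16.0, 18.4 and 16.1 CPM with EV and 19.4, 20.1 and 23.3 CPM with RAS for the S6K1 series, and at 15.5, 15.3 and 15.6 against 16.7, 22.0 and 18.9 CPM in the S6K1/S6K2 series. The groups did not overlap in either series (log2 fold changes 0.31, SE 0.13, and 0.32, SE 0.15), and the adjusted p values were 0.176 and 0.156. Polr1a, the largest subunit, overlapped between the groups at 44.6, 66.3 and 51.9 against 50.4, 65.1 and 66.4 CPM in the S6K1 series, and at 38.1, 36.0 and 48.5 against 45.5, 57.3 and 49.5 CPM in the S6K1/S6K2 series. Rrn3, which makes Pol I competent to initiate, also overlapped, at 76.6, 81.6 and 74.9 against 76.2, 86.3 and 86.7 CPM and at 74.0, 70.5 and 78.3 against 76.1, 80.4 and 82.1 CPM. Its log2 fold change was 0.10 in both series. Polr1a would pass in the S6K1/S6K2 series without WT EV 3 (log2 fold change 0.47, adjusted p 0.0396), and with that library its log2 fold change was 0.31 (SE 0.15, adjusted p 0.138).

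**Figure D1:**
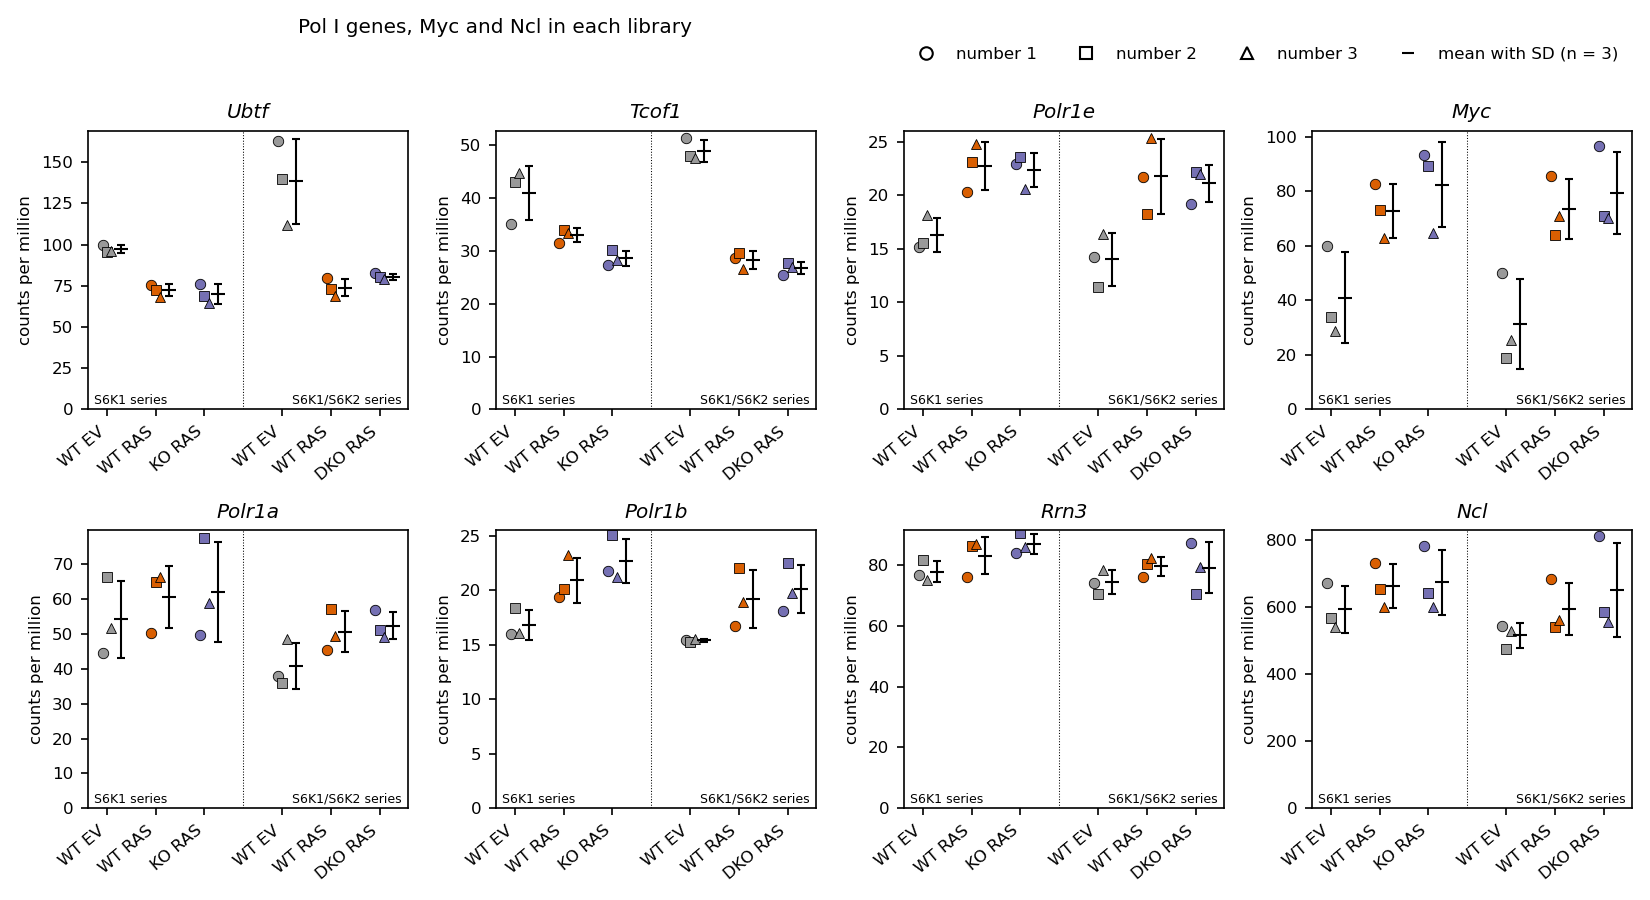
Levels of the 6 Pol I machinery genes, Myc and Ncl in the 18 libraries, in CPM (y axis from 0) by group (x axis), with circles, squares and triangles for libraries 1, 2 and 3 and bars for the mean ± SD (n = 3). Ubtf and Tcof1 were lower and Polr1e and Myc higher in every WT RAS library than in every WT EV library of the same series, and the KO and DKO libraries lay near the WT RAS libraries.

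Myc, the transcription factor upstream of much of this machinery (chromosome 15, 61985341 to 61990361), had the highest log2 fold change of the 48 in both series. Its levels were 59.9, 33.9 and 28.8 CPM with EV and 82.5, 73.2 and 62.7 CPM with RAS for the S6K1 series. The lowest RAS library stood only just above the highest EV library, and Myc did not pass (1.78-fold, log2 fold change 0.83, SE 0.27, adjusted p 0.0760). Of 18 alternatives it passed in 5 and not in the other 13. With the replicate block it passed at 0.88 (adjusted p 0.00113), and without WT EV 1, the EV library with the highest Myc, at 1.20 (adjusted p 0.00955). It also passed in DESeq2 (0.84, adjusted p 0.0285) and in edgeR without the filter (0.84, adjusted p 0.0199). The fifth was edgeR with library 1 left out of all 3 groups (1.13, adjusted p 0.0302). For the S6K1/S6K2 series Myc levels were 49.9, 18.7 and 25.4 CPM with EV and 85.4, 63.8 and 70.7 CPM with RAS. It rose 2.34-fold there (log2 fold change 1.23, SE 0.31, adjusted p 0.0187), and the adjusted p was 0.0512 without WT EV 2 and 0.0513 without WT RAS 1.

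MYC and related factors bind the E-box CACGTG, so the letters of the members' promoters were described. RefSeq promoters (GRCm38.p6, 250 bases before and 50 bases from the transcription start) were at hand for 40 of the 48 members. CACGTG, which reads the same on both strands, was in the promoter of 8 members (20%), against 8.09% of all 27025 genes with a promoter in the table. CACGCG on either strand (CGCGTG on the other) was in 13 members (32.5%, all genes 10.5%), and 20 members (50%, all genes 17.2%) held at least 1 of the motifs. Pes1 held both. The share of all genes takes in every gene of that table, expressed or not, and base composition was not matched. Whether the members differ from other expressed genes in these motifs was not tested. A match is a description of letters and not a bound site. The 250 bases before the start are shown 5′ to 3′ for the member that rose in both series and for a pair of members with CACGTG upstream of the start, with that motif in capitals. Polr1e (chr4:45018359-45018608, plus strand) has none there and holds CGCGTG at position 42 after the start. Nop2 (chr6:125131633-125131882, plus strand) has it at -60, and Rrn3 (chr16:13780449-13780698, plus strand) at -215 and -48, counted from the first transcribed base.
Polr1e: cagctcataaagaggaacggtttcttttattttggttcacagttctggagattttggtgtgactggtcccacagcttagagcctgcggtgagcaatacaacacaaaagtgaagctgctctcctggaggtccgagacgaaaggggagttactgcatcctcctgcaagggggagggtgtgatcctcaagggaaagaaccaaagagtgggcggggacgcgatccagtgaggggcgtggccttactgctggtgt
Nop2: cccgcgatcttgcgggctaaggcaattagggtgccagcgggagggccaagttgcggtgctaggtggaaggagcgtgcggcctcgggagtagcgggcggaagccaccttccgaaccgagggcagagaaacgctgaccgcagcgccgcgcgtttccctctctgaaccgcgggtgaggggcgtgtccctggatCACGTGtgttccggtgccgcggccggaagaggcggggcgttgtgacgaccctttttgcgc
Rrn3: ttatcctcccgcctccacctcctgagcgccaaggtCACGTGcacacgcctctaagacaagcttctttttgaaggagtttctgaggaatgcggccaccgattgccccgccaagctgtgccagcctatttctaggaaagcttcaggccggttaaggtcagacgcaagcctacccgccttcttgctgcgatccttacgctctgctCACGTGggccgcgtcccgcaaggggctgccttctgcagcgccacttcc
Of these 3, Polr1e passed the test in both series, whereas Nop2 (log2 fold changes 0.35 and 0.47, adjusted p 0.114 and 0.0634) and Rrn3 did not. Ubtf, which passed as lower in both series, holds CACGCG or CGCGTG at -182, -124, -12 and 13. The motifs were thus not limited to members that rose.

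The abundant nucleolar proteins did not pass in either series. Ncl, or nucleolin, which binds the nascent ribosomal RNA, had 673, 566 and 542 CPM with EV and 732, 655 and 599.5 CPM with RAS for the S6K1 series. Its S6K1/S6K2 levels were 544, 474 and 529 against 682, 541 and 560.1 CPM. Each RAS library was above the EV library of its own number, although the groups overlapped (log2 fold changes 0.16 and 0.21). Npm1, or nucleophosmin, was at 256, 178 and 170.3 against 289.6, 225 and 185 CPM in the S6K1 series and at 345, 276 and 195 against 229, 179.9 and 187 CPM in the S6K1/S6K2 series. It therefore lay higher with RAS in every numbered pair of one series and lower in every pair of the other, with log2 fold changes of 0.21 (SE 0.25, adjusted p 0.641) and -0.45 (SE 0.19, adjusted p 0.110). Without WT EV 3 of the S6K1/S6K2 series, Npm1 passed at -0.63 (adjusted p 0.0155). The other 3 of this group, Nolc1, Ddx21 and Lyar, had log2 fold changes of 0.12, 0.12 and 0.50 in the S6K1 series and 0.01, 0.25 and 0.11 in the S6K1/S6K2 series.

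All 8 snoRNP proteins had log2 fold changes above 0 in the S6K1 series, whereas their values went both ways in the S6K1/S6K2 series. The C/D proteins, which carry out 2′-O-methylation, had a median of 0.27 in the S6K1 series and lay between -0.43 and 0.06 in the S6K1/S6K2 series. The H/ACA proteins, which carry out pseudouridylation, had a median of 0.34 in the former and lay between -0.32 (Gar1, without overlap between the groups) and 0.31 (Nhp2, higher in all 3 numbered pairs) in the latter. None of the 8 passed in either series. Fbl, the methyltransferase fibrillarin, had 4.11, 3.43 and 3.48 CPM with EV and 6.32, 4.21 and 4.02 CPM with RAS for the S6K1 series and 5.33, 2.83 and 4.11 against 4.21, 4.29 and 3.98 CPM in the S6K1/S6K2 series. These rest on 32 to 78 counts a library, and the groups overlapped. Nop56, a core C/D protein, was at 53.9, 50.2 and 47.9 against 59.7, 57.5 and 50.2 CPM and at 43.5, 36.6 and 44.7 against 52.7, 39.9 and 37.3 CPM, with log2 fold changes of 0.14 and 0.06. Nop58, its partner in the same particle, was at 123, 89.4 and 93.4 against 129.6, 115 and 83.9 CPM in the S6K1 series and at 122, 96.1 and 85.3 against 92.0, 59.7 and 73.0 CPM in the S6K1/S6K2 series. In the latter each RAS library was below its numbered EV library (log2 fold change -0.43, SE 0.23, adjusted p 0.183, and 0.0325 with the replicate block). Nop58 did not pass there with the block over the WT libraries alone. Dkc1, the pseudouridine synthase dyskerin, was at 25.7, 23.9 and 19.9 against 36.8, 34.1 and 22.0 CPM for S6K1 (log2 fold change 0.42, SE 0.23, adjusted p 0.298, and 0.0123 with the replicate block). Its values in the S6K1/S6K2 series, 28.4, 24.4 and 18.3 against 33.1, 21.3 and 16.4 CPM, overlapped and gave a log2 fold change of -0.01 (SE 0.29).

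Among the 12 factors of 40S assembly none passed in either series, and their medians were 0.08 and 0.07. Heatr1, a subunit of the early processing complex that also supports Pol I transcription, was at 43.3, 59.3 and 43.1 against 48.2, 53.9 and 54.9 CPM in the S6K1 series and at 29.3, 32.6 and 39.9 against 39.5, 47.4 and 40.5 CPM in the S6K1/S6K2 series. Its groups overlapped in both series (log2 fold changes 0.11 and 0.32). The range over the 12 was widest for Utp20, a large scaffold protein, at -0.40 (SE 0.23, adjusted p 0.322) in the S6K1 series, and Ltv1, an export and maturation factor, at -0.44 (SE 0.19, adjusted p 0.116) in the S6K1/S6K2 series, both chosen after their values were seen. Utp20 was one of the 3 members that passed as lower with the replicate block in the S6K1 series.

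The 16 factors of 60S assembly had values above 0 in 16 of 16 cases in the S6K1 series, with a median of 0.26, and a median of -0.07 in the S6K1/S6K2 series. No 60S factor passed in either, and 7 of the 13 members that passed as higher with the replicate block in the S6K1 series were in this group. Nip7, a maturation factor of the pre-60S particle, had 31.7, 23.2 and 25.0 CPM with EV and 42.8, 31.5 and 27.4 CPM with RAS for the S6K1 series. Its S6K1/S6K2 levels were 41.1, 32.0 and 29.5 against 29.3, 21.0 and 23.7 CPM. Each RAS library was above its numbered EV library in the former and below it in the latter, where the groups did not overlap (log2 fold changes 0.35, SE 0.24, and -0.47, SE 0.18). Its levels are given because the difference between the series was widest for it, a choice made after the values were seen.

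Libraries that did not overlap were counted for all members. In the S6K1 series 8 members lay higher in every WT RAS than in every WT EV library (Polr1b, Polr1e, Myc, Utp15, Nop2, Rrp1b, Bop1 and Ddx56), or 16.7% of members against 15.9% of all tested genes, and 2 lay lower (Ubtf and Tcof1), against 15%. For the S6K1/S6K2 series 8 lay higher (Polr1b, Polr1e, Myc, Nop14, Nop2, Rrp1b, Ddx56 and Gnl2), against 20.9% of all tested genes, and 4 lower (Ubtf, Tcof1, Gar1 and Nip7), against 21.7%. Within same-numbered pairs, 10 members were higher with RAS in all 3 pairs of both series (Ddx56, Gnl2, Myc, Ncl, Nhp2, Nop14, Nop2, Polr1b, Polr1e and Rrp1b) and 2 were lower (Ubtf and Tcof1). Of the 13550 genes tested in both series, 19.3% were higher and 19% lower in that way, beside 20.8% and 4.17% of members. A further 7 members (Ddx18, Ddx52, Ebna1bp2, Gar1, Nip7, Npm1 and Rrs1) were higher in all 3 pairs of the S6K1 series and lower in all 3 of the S6K1/S6K2 series, or 14.6% of members beside 2.4% of all genes tested in both.

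**Figure D2:**
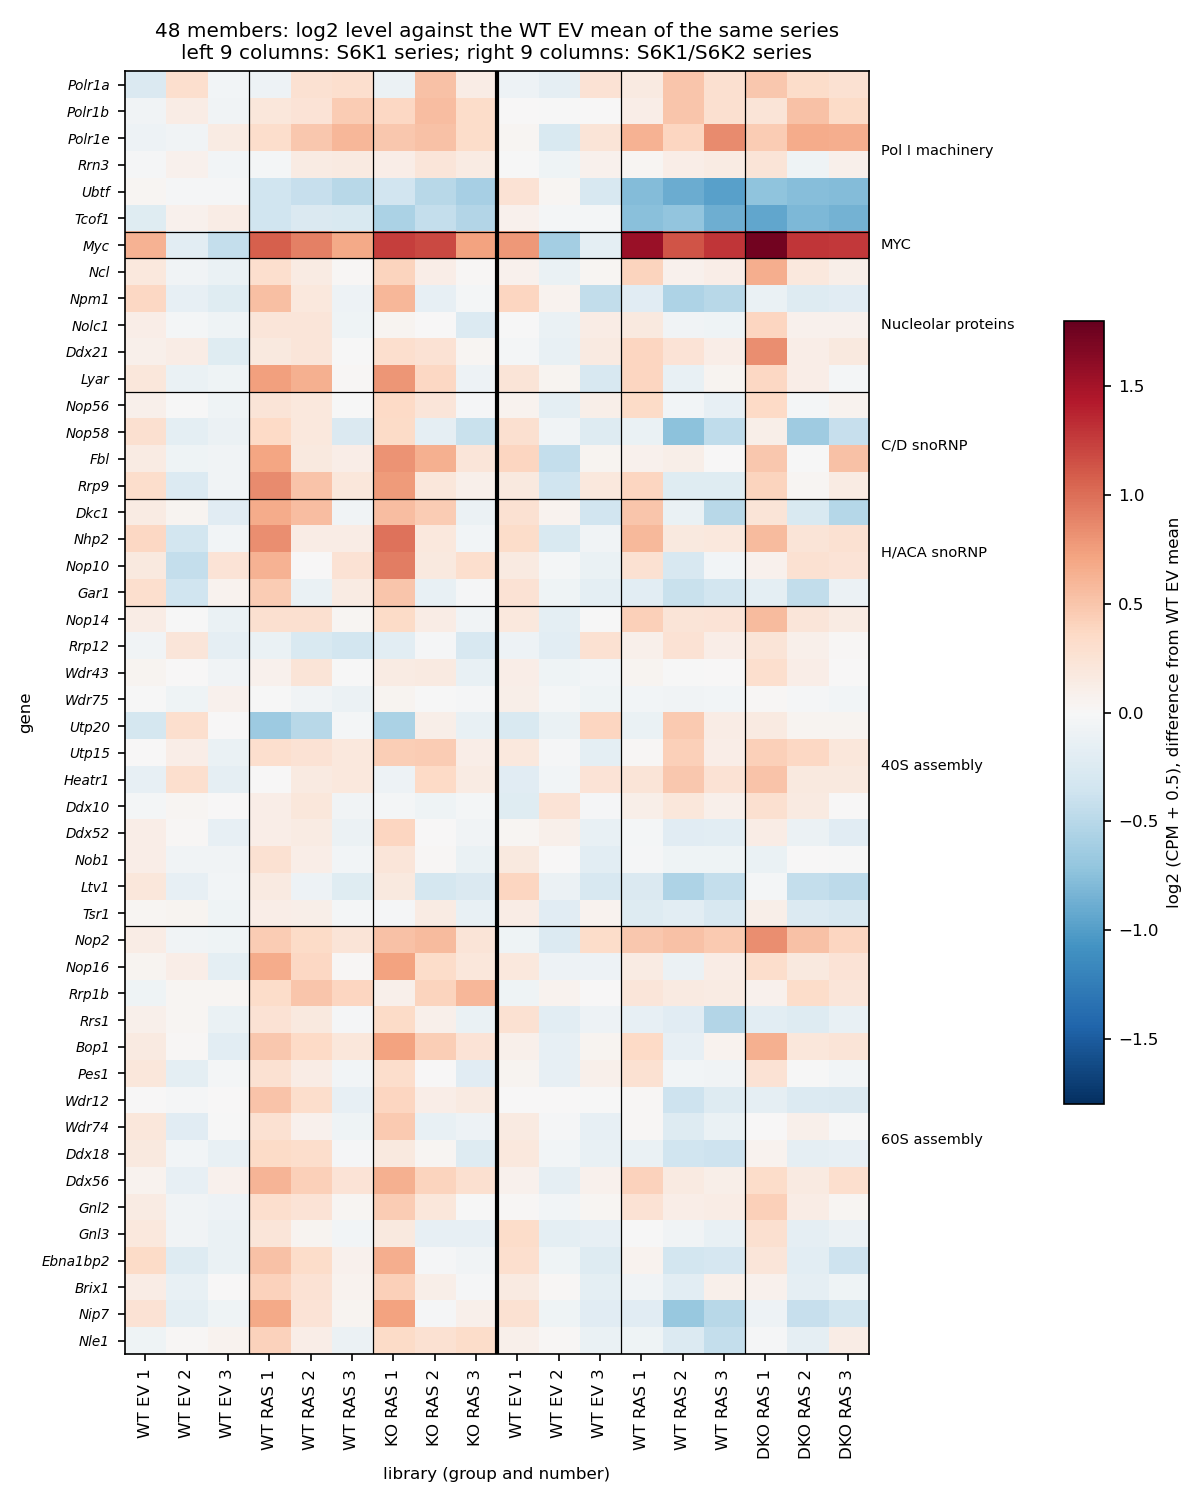
Each of the 48 members (rows, grouped by role) in each of the 18 libraries (columns), as the difference of log2(CPM + 0.5) from the mean of the WT EV libraries of the same series (colour, scale from -1.8 to 1.8). The rows of Ubtf and Tcof1 are below 0 and those of Myc and Polr1e above 0 in the RAS, KO and DKO libraries, and most other rows stay near 0.

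Proliferation genes and cell type markers moved in the same comparisons. Of 30 listed genes such as Mki67 and Top2a, 3 were called lower with RAS in the S6K1 series (8 with the replicate block) and 19 in the S6K1/S6K2 series (11 with the block), and none was called higher. Of all tested genes, 6.09% and 12.7% were called lower without the block. Epithelial markers, of which 5 were tested, were called higher in 4 and 5 cases. Of the 10 fibroblast markers, 4 were called lower in each series and 1 was called higher in the S6K1 series, and the mean of the collagen gene Col1a1 was 12125 CPM with EV and 3242 CPM with RAS for the S6K1 series and 13824 against 3326 CPM for the other. Endothelial markers were called higher in 3 of 7 and 2 of 5 tested, with 1 called lower in the S6K1/S6K2 series. Of the macrophage markers, 11 of 17 and 4 of 16 tested had a value above 0 and none was called (5 higher and 2 lower with the block in the S6K1 series, and 4 lower in the other). Muscle markers had 1 of 3 called lower in the S6K1 series and none of 2 in the other. Their part in the members' values was not tested.

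To ask whether the 2 series differed in their response, the RAS effect of the S6K1 series was subtracted from that of the S6K1/S6K2 series over all 18 libraries. No member passed in edgeR, where 0% of all tested genes passed, and 4 had an unadjusted p under 0.05, all lower in the S6K1/S6K2 series, where 12.6% of all tested genes did (Tcof1 -0.49, Ubtf -0.49, Nip7 -0.83 and Ddx18 -0.53 on the log2 scale). DESeq2 gave the same count of 0. The smallest adjusted p was 0.246, for Tcof1. With the replicate block 1 member passed, Nip7 (adjusted p 0.0432), where 0.4% of all tested genes did. That block also tied the DKO libraries to WT by number, and it was not refitted on the WT libraries alone. The difference was below 0 for 37 of 48 members and above 0 for the others (47.2% of all tested genes were above 0), with a median of -0.21 against -0.03 over all tested genes. The labels do not say whether the libraries of both series were handled together. An effect of handling could therefore not be separated from a difference between the series.

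To ask whether S6K1 loss altered these genes in RAS cells, KO RAS was compared with WT RAS. No member passed in edgeR (0.00712% of all tested genes did), none had an unadjusted p under 0.05 (6.86%), and none passed with the replicate block (4.15% of all tested genes did) or in DESeq2. Log2 fold changes lay between -0.23 and 0.24, with 23 above 0 (56.6% of all tested genes) and 25 below and a median of -0.02 (all tested genes 0.03). With 1 library left out that median was between -0.11 (without KO RAS 1) and 0.07 (without KO RAS 3), and it was also above 0 without WT RAS 1 or KO RAS 2. The highest values were those of Fbl (0.24) and Utp20 (0.20) and the lowest those of Ddx18 (-0.23), a helicase of 60S assembly, and Tcof1 (-0.21). Tcof1 was at 27.3, 30.2 and 28.2 CPM in KO RAS, below each WT RAS library. It was the only member whose groups did not overlap, where 4.17% of all tested genes lay lower in that way (adjusted p 0.943). A p that misses the threshold does not show that levels were alike, so the intervals are given. The 95% intervals of all 48 members lay within 1 of 0 on the log2 scale and those of 32 within 0.5 of 0, with extreme bounds of -0.71 (Rrp9) and 0.81 (Fbl).

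The KO levels of the Pol I genes stayed near those of WT RAS. Ubtf had 76.3, 68.9 and 64.3 CPM in the KO libraries (log2 fold change -0.05, SE 0.10), Polr1e at 22.9, 23.5 and 20.6 CPM (-0.03, SE 0.13) and Myc at 93.1, 89.4 and 64.5 CPM (0.18, SE 0.26). All of these overlapped with WT RAS. Polr1a was at 49.7, 77.7 and 58.8 CPM, Polr1b at 21.8, 25.1 and 21.2 CPM and Rrn3 at 84.0, 90.4 and 85.9 CPM, likewise with overlap. Of the nucleolar and snoRNP proteins, Ncl was at 782, 640.4 and 598 CPM, Npm1 at 299, 179 and 193 CPM, and Fbl at 6.82, 5.98 and 4.33 CPM. Dkc1 was at 34.0, 31.9 and 21.4 CPM, Nop56 at 65.2, 59.2 and 49.8 CPM, and Nop58 at 129, 90.6 and 76.4 CPM, while Heatr1 was at 45.2, 61.8 and 53.3 CPM. In each of these genes the KO libraries overlapped with the WT RAS libraries. The same comparison held the macrophage markers, of which 17 of 17 had a lower value in KO RAS (17 with an unadjusted p under 0.05, 0 called, 16 called with the replicate block). Proliferation genes were lower in 29 of 30 cases (median -0.48, 10 with an unadjusted p under 0.05, 0 called, 2 called with the block). Their part in the members' values was not tested.

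Loss of both kinases gave a like range. Between DKO RAS and WT RAS of the S6K1/S6K2 series no member passed in edgeR (0.0216% of all tested genes did) or in DESeq2, and none had an unadjusted p under 0.05 (1.29%). Log2 fold changes lay between -0.17 and 0.33, with 39 of 48 above 0 (49.9% of all tested genes) and a median of 0.085 (all tested genes -0.0003). That median rested on DKO RAS 1, the library with the highest median of its group, and was -0.0234 without it. The highest values were those of Fbl (0.33) and Bop1 (0.27), a 60S factor, and the lowest those of Dkc1 (-0.17) and Utp20 (-0.10). Nop16 was the single member without overlap (higher, where 3.02% of all tested genes were). The 95% intervals lay within 1 of 0 for all 48 members and within 0.5 of 0 for 31, with extreme bounds of -0.82 (Dkc1) and 0.995 (Fbl).

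Levels in the DKO libraries are given for the same genes. Ubtf had 82.7, 80.1 and 79.1 CPM, a log2 fold change from WT RAS of 0.13 (SE 0.14), Tcof1 at 25.5, 27.8 and 26.9 CPM (-0.08, SE 0.11) and Polr1e at 19.1, 22.2 and 22.0 CPM (-0.04, SE 0.18). Myc was at 96.6, 71.0 and 70.2 CPM (0.11, SE 0.31). Each overlapped with WT RAS or lay next to it, and Ubtf and Tcof1 were below every WT EV library. Polr1a was at 56.8, 51.2 and 49.3 CPM, Polr1b at 18.1, 22.5 and 19.8 CPM, and Rrn3 at 87.3, 70.6 and 79.2 CPM. Ncl was at 812, 585 and 554 CPM, Npm1 at 245, 225 and 229.9 CPM, and Fbl at 5.75, 3.95 and 5.96 CPM. Dkc1 was at 27.4, 19.2 and 16.2 CPM, Nop56 at 53.3, 40.3 and 43.4 CPM, Nop58 at 108, 63.9 and 74.9 CPM, and Heatr1 at 48.3, 38.0 and 37.9 CPM. Library 1 was the highest of the DKO group for Ubtf, Myc, Polr1a, Rrn3, Ncl, Npm1, Dkc1, Nop56, Nop58 and Heatr1. In this comparison 16 of 16 tested macrophage markers had a lower value in the DKO cells (median -1.99, 2 with an unadjusted p under 0.05, 0 called), and 18 of 30 proliferation genes had a higher one (median 0.03, 0 called and 0 with an unadjusted p under 0.05). Their part in the members' values was not tested.

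**Figure D3:**
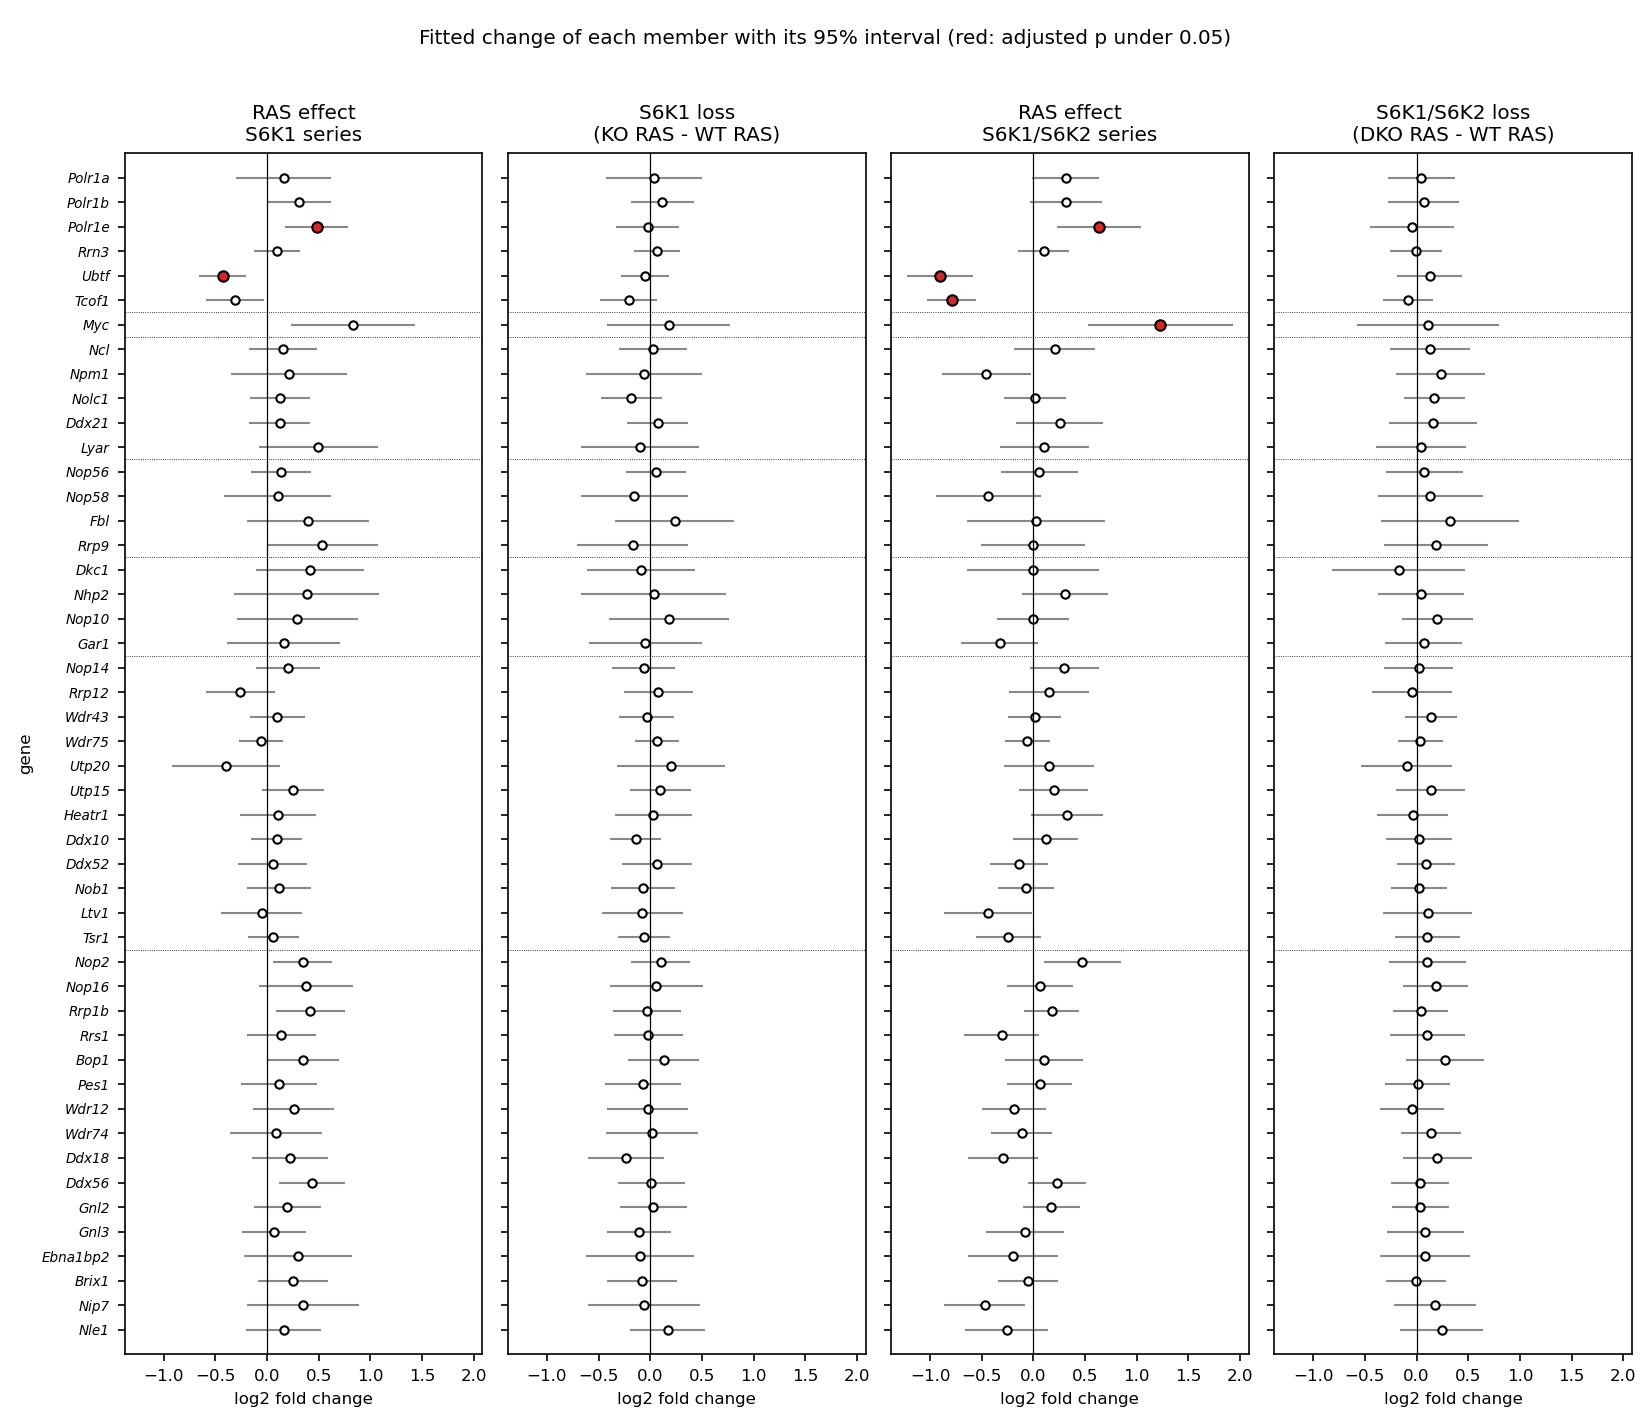
Log2 fold changes of the 48 members (rows) with 95% intervals in the 4 comparisons within series (panels), with members at an adjusted p under 0.05 in red. Coloured members are 2 and 4 in the RAS panels and none in the loss panels, where all intervals lie within 1 of 0.

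The loss effects were also subtracted between the series. No member passed in edgeR (0.0069% of all tested genes did) and none had an unadjusted p under 0.05 (1.23%). The count in DESeq2 was 0 as well. The difference was above 0 for 41 of 48 members (51.2% of all tested genes), with a median of 0.12 (all tested genes 0.0068), and the median half-width of the 95% intervals of single members was 0.47.

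The median over the members varied with library number, although not every member followed it. Their median difference from the WT EV mean on the log2(CPM + 0.5) scale was 0.12, -0.04 and -0.07 in WT EV libraries 1, 2 and 3, 0.30, 0.20 and 0.003 with RAS, and 0.36, 0.14 and -0.02 in KO cells for the S6K1 series. The S6K1/S6K2 series had 0.13, -0.08 and -0.04 with EV, 0.08, -0.06 and -0.02 with RAS, and 0.23, 0.04 and 0.03 in DKO cells. Library 1 was the highest in each of the 6 groups. For the Pol I machinery genes alone, library 1 had the lowest median in each group of the S6K1 series. Those medians were -0.08, 0.08 and -0.03 with EV, -0.06, 0.20 and 0.23 with RAS, and 0.003, 0.37 and 0.14 in KO cells. In the S6K1/S6K2 series that held for WT RAS (0.08, 0.25 and 0.21) and not for the EV or DKO libraries. The summed level of the 48 members was 2882 ± 242 CPM with EV, 3203 ± 304 CPM with RAS and 3202 ± 410 CPM in KO cells for the S6K1 series (mean ± SD, n = 3), and 2809.9 ± 247, 2809 ± 226 and 3009 ± 391 CPM in the groups of the S6K1/S6K2 series.

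**Figure D4:**
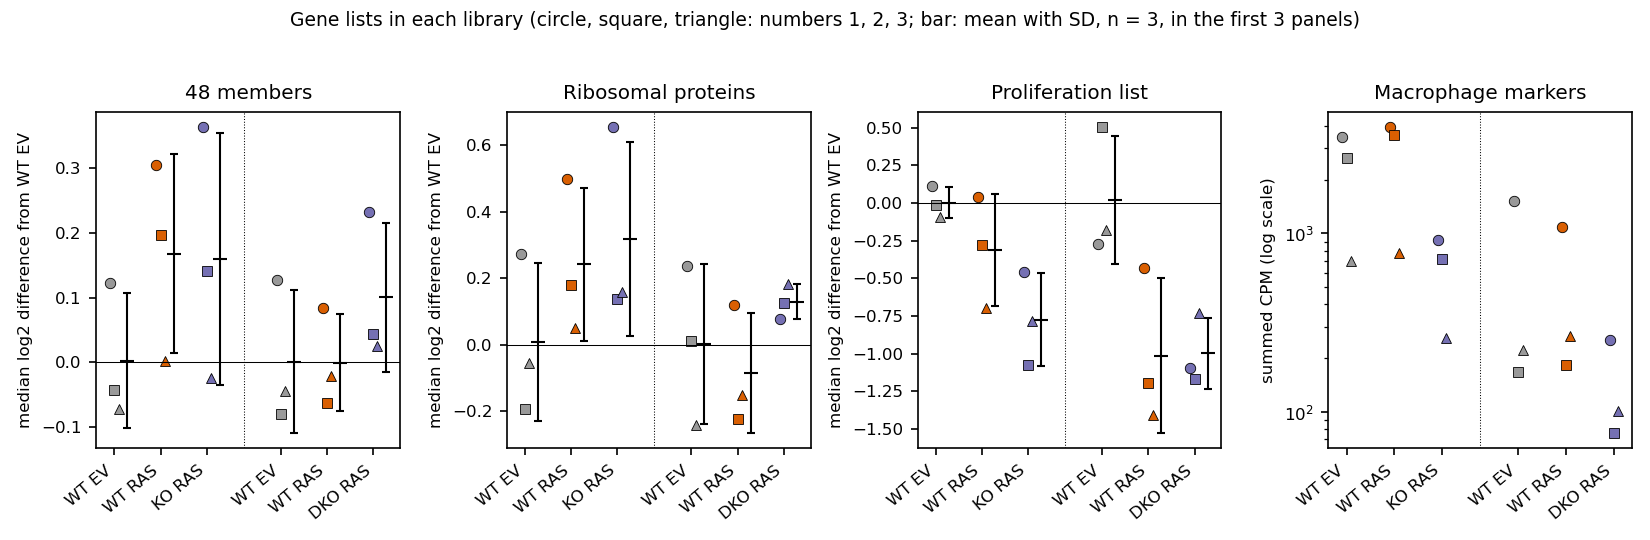
Values by library and group (x axis) in 4 panels, with the median over the 48 members, over cytoplasmic ribosomal proteins and over proliferation genes as log2(CPM + 0.5) differences from the WT EV mean of the series, and the summed macrophage markers in CPM on a log axis. Library 1 is the highest of each group in the panel of members.

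The rest of the pathway was described from lists of genes, of which those named below had an adjusted p under 0.05 in edgeR. Of the other Pol I subunits and factors, Polr2e, a subunit shared by the RNA polymerases, rose in both series (log2 fold changes 0.64 and 0.37) and was the 1 of 14 tested called in the S6K1 series. With RAS in the S6K1/S6K2 series Taf1d, of the SL1 complex, also rose (0.38), and the Pol I subunits Polr1h (-0.91) and Polr1g (-0.61) fell. Of 41 other 40S factors, Wdr36 rose in both (0.60 and 0.83), with Utp4 (0.44) higher and Ngdn (-0.62) and Dcaf13 (-0.37) lower in the S6K1/S6K2 series. Of 46 other 60S factors, Efl1, which helps release eIF6 from the subunit, rose in the S6K1 series (0.50), and 6 rose in the S6K1/S6K2 series, led by Las1l (1.18) and Ddx54 (0.61). Among MYC network genes, the MAX partner Mxi1 rose (0.54 and 0.91) and Mxd4 fell (-0.93 and -1.33) in both series, and Mxd3 fell (-2.31) and Mycl rose (1.59) in the S6K1/S6K2 series. Mxi1, Mxd3 and Mxd4 encode partners of MAX that repress at E-boxes. Shares called with RAS in the S6K1 and S6K1/S6K2 series were 7.14% and 30.8% for the other Pol I genes and 2.44% and 9.76% for the 40S factors. They were 2.17% and 13.0% for the 60S factors and 18.2% and 36.4% for MYC network genes. Of all tested genes 13.2% and 26.3% were called. None of these lists held a called gene in either loss comparison.

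Cytoplasmic ribosomal proteins, the cargo of the assembly factors, were tested for 75 genes. With RAS, 67 of 75 had a value above 0 in the S6K1 series (median 0.22) and 22 of 75 in the S6K1/S6K2 series (median -0.09). Called genes were 1 in each, Rpl9 higher (0.68) and Rpl15 lower (-1.03), or 1.33% beside 13.2% and 26.3% of all tested genes. With the replicate block 26 were called higher in the S6K1 series, where 18.1% of all tested genes were. In the loss comparisons 61 of 75 lay above 0 for S6K1 (median 0.12) and 68 of 75 for both kinases (median 0.25), with 0 called in edgeR in either and 0 and 2 at an unadjusted p under 0.05. Many ribosomal protein genes have processed copies elsewhere in the genome, so their counts are uncertain. Among members the same holds for Fbl, Ddx18, Npm1, Nop56 and Pes1, in which 80.3%, 65.8%, 44.3%, 40.2% and 17.0% of 50-base windows of the transcript also match elsewhere.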

How the data were processed

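Poly(A) libraries (stranded, single-end) of 18 MEF cultures were analysed from the table of raw counts per gene that the authors deposited. The submitters' processing notes name STAR 2.7.1a, DESeq2 1.28.1 and mm10, whereas the methods of the study name TopHat, HTSeq and mm9, so the build behind the counts is not settled, and positions are those of RefSeq on GRCm38.p6. Symbols were found for 32589 identifiers, with 99.1% of counts.

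Analyses used R 4.3.3 and edgeR 4.0.16. Each series was fitted over its 9 libraries by group, after filterByExpr (minimum count 10) and TMM scaling, with quasi-likelihood tests (two-sided) and Benjamini-Hochberg adjustment over all tested genes (threshold 0.05). Differences between series were fitted over 18 libraries. CPM are counts-per-million of the TMM-scaled library size of the fit of each series, so levels are not compared between series. SE is the log2 fold change divided by the root of F, and 95% intervals use the fit's degrees of freedom. The pseudocount of log2 levels was 0.5 CPM. The fits were tested on simulated data. DESeq2 1.42.0, other scalings, filters, sample sets, the replicate block and leaving out each library were alternatives.

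Same-numbered libraries were checked for pairing by the correlation of their deviations from group means over all tested genes. For the S6K1 series r was 0.684, 0.444 and 0.668 between WT EV and WT RAS, which are taken as one line by number. Between WT RAS and KO RAS r was 0.693, 0.394 and 0.617. These MEFs came from littermate embryos as a set, and the labels do not say which numbers are littermates. For the S6K1/S6K2 series r was 0.366, 0.292 and 0.308 between WT EV and WT RAS. These numbers were treated as pairs. The replicate block covered all libraries of a series, so in the S6K1/S6K2 series it tied the DKO libraries by number as well. Replicates differed by more than counting noise (over 18 pairs, chi-square was at least 8.62 times its degrees of freedom), and none was merged.

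The 48 members and all lists were chosen with earlier results of these data known. Values per library are given for 14 members (the Pol I machinery, Myc, Ncl, Npm1, Fbl, Dkc1, Nop56, Nop58 and Heatr1), for up to 5 highest and 5 lowest passing members per comparison, and, where none passed, the 2 highest and 2 lowest are given by log2 fold change. From each other list up to 2 genes called in each direction are named.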

Additional observations from a re-analysis of the deposited data

Results flagged for a closer look

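In 7 members every same-numbered pair of WT libraries was higher with RAS in the S6K1 series and lower in the S6K1/S6K2 series, or 14.6% of members beside 2.4% of the 13550 genes tested in both. The difference of the log2 fold changes (S6K1/S6K2 minus S6K1) was -0.83 for Nip7, -0.68 for Npm1, -0.53 for Ddx18, -0.51 for Ebna1bp2, -0.50 for Gar1, -0.46 for Rrs1 and -0.21 for Ddx52. Tested in edgeR over 18 libraries, none passed, with adjusted p values of 0.320, 0.412, 0.356, 0.50, 0.488, 0.402 and 0.650 in that order. With the replicate block Nip7 passed (adjusted p 0.0432) and the others did not (0.094, 0.075, 0.094, 0.112, 0.134 and 0.366 in the same order). That block also tied the DKO libraries to WT by number. Counts of Npm1 and Ddx18 are uncertain, since much of their transcript matches elsewhere in the genome.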

How the results depend on the processing

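The count of members passing for RAS in the S6K1 series, 2, was 4 with DESeq2 and 4 with all 18 libraries in the fit, 16 with the replicate block, and 1 without the filter, with the 6 libraries compared alone, and with library 1 left out of all 3 groups (added after seeing the data). Leaving out 1 library gave 0 to 1. The count for RAS in the S6K1/S6K2 series, 4, was 7 with the replicate block, and 2 (without WT EV 2) to 7 (without WT EV 3) with 1 library left out. The count for the difference of RAS effects, 0, was 1 with the replicate block and 0 to 1 with 1 library left out (1 without WT EV 3 of the S6K1/S6K2 series). Both loss counts were 0 in every alternative. The median loss effect in the S6K1/S6K2 series, 0.085, was -0.0234 (without DKO RAS 1) to 0.15 with 1 library left out. The cause of these shifts was not tested. Of 1094 values of single members recomputed, 1056 kept their side of the threshold, 28 lost and 10 gained a call. Of the values called in either fit, 0 changed sign. Values not called could change sign, as for Dkc1 with RAS in the S6K1/S6K2 series (-0.33 to 0.20). Same-numbered DKO and WT RAS libraries correlated at 0.281, 0.454 and -0.034. DKO and WT MEFs came from different mothers, so the numbers were not taken as pairs of these libraries. The replicate block tied them by number all the same, and it left the DKO loss count at 0. Its calls for RAS in the S6K1/S6K2 series and for the difference of RAS effects carry that limit. The replicate block changed no call of the named members other than those given in the report. Fbl had the lowest count of a member (32 in a library), and 80.3% of the 50-base windows of its transcript also match elsewhere.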

Other observations

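Genes of the nucleolar surveillance of p53 were also listed (Rpl5, Rpl11, Mdm2, Mdm4, Trp53 and Cdkn2a). Of these 6, 2 were called with RAS in each series, where 13.2% and 26.3% of all tested genes were. A response to nucleolar stress was not tested. Mdm2, the ubiquitin ligase of p53 that free ribosomal proteins bind, rose by log2 fold changes of 1.07 in the S6K1 and 1.97 in the S6K1/S6K2 series, and Cdkn2a, which encodes p19Arf and p16, by 1.00 and 1.23. Suv39h1, a histone methyltransferase of the silent ribosomal DNA repeats, rose by 1.14 and 1.32. It was the 1 gene called of 8 in a list of ribosomal DNA silencing, or 12.5% in each series. Of these 8, 4 lay above 0 and 4 below in each series (medians -0.09 and -0.04). Polr3g, a subunit of RNA polymerase III, rose by 0.72 and 1.13, and Gtf3c5, of its factor TFIIIC, fell in the S6K1/S6K2 series (-0.55). Of the exosome and RNase MRP list, Exosc3 (-0.78) and Exosc2 (-0.72) fell in the S6K1/S6K2 series and no gene was called in the S6K1 series, where 1 of 21 had an unadjusted p under 0.05. Of the other snoRNP factors, Ruvbl2 rose (0.46) and Pih1d1 fell (-0.75) in the S6K1/S6K2 series. There, 9.52% of the exosome list, 20% of these factors and 10.5% of RNA polymerase III genes were called (all tested genes 26.3%). In the S6K1 series the shares were 0%, 0% and 5.26% (all tested genes 13.2%). No gene of these lists was called in either loss comparison in edgeR.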
